A study of Homo sapiens with 6 samples.

Results

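The 8 genes examined encode cytoplasmic intermediate filament proteins of neural cells. Of these, 5 are neuronal (NEFL, NEFM, NEFH, INA and PRPH), and 3 belong to progenitors and glia (VIM, NES and GFAP). Every listed CTCF or H3K27ac peak that shared at least 1 bp with a gene, or with the 10 kb on either side of it, was taken. This gave 46 peaks of the 122371 in the series. Of the 46, 27 came from the H3K27ac list of 78694 peaks and 19 from the CTCF list of 43677. CTCF binds DNA directly and, with cohesin, anchors loops of chromatin, whereas H3K27ac (acetylation of lysine 27 on histone H3) marks promoters and enhancers in use. Both were profiled by chromatin immunoprecipitation and sequencing (ChIP-seq) in neurons. These had been derived from neural progenitors of an established human pluripotent cell line, KOLF2.1J. All 6 samples were neurons of this 1 line, with no treatment named in the labels, and 2 libraries each were made with the CTCF antibody, with the H3K27ac antibody and from input chromatin without antibody.

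Each antibody had 1 peak list covering both of its replicates, so the lists carry no spread between replicates and no difference between genes was tested. Each H3K27ac value below is the authors' value, read here from its layout as the fold enrichment at the summit of a peak. Each CTCF value is the authors' signal value, whose scale is not stated. Values were compared only within a list. The lists gave no read counts, and the depth behind each value is unknown. Cultures without differentiation were not analysed here, so progenitor and neuronal refer to genes and not to samples. In a bulk culture, more cells that carry a mark and more of the mark per cell cannot be told apart.

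Intermediate filaments are flexible ropes that give a cell its mechanical strength. Their composition changes as neural cells mature: dividing neural progenitors contain vimentin and nestin, astrocytes add glial fibrillary acidic protein, and neurons replace the early proteins with alpha-internexin and then the neurofilament triplet. In the mature axon the triplet sets calibre, and neurofilament light chain released into blood is a common marker of axonal damage. Peripherin is known mainly from peripheral neurons and from central neurons with peripheral axons.

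The strongest acetylation within the filament genes lay over NES and VIM. NES encodes nestin, and 99.7% of its length was under listed H3K27ac peaks. VIM encodes vimentin, and 62.2% of its length was covered. The neuronal genes NEFL, NEFM and INA had 28.4%, 23.9% and 22.4% of their length covered, with highest fold enrichments of 8.38, 14.3 and 9.87. No H3K27ac peak was listed within 10 kb of NEFH or PRPH. GFAP, which encodes glial fibrillary acidic protein, had 1.76% of its length under a single weak peak.

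**Figure D1:**
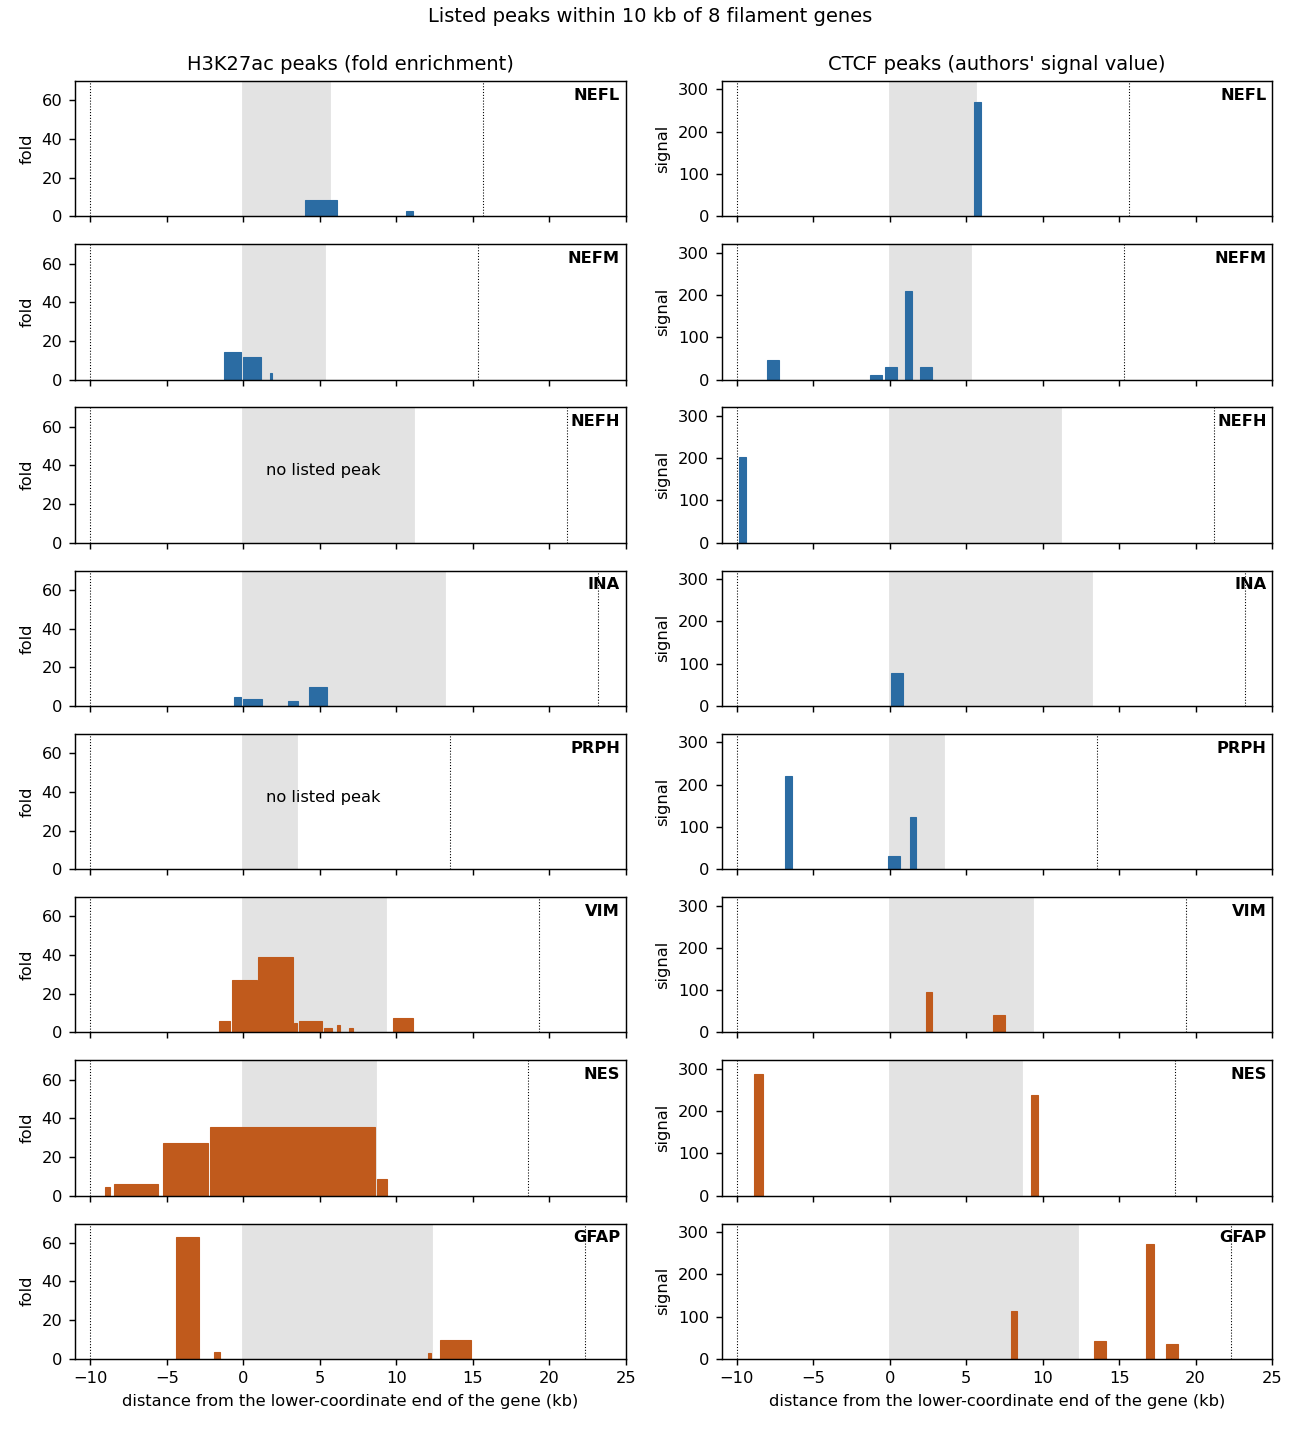
Listed H3K27ac peaks (left, fold enrichment) and CTCF peaks (right, authors' signal value) by distance in kb from the lower-coordinate end of each gene. Grey bands are genes, dotted lines the limits 10 kb away, and each bar spans 1 peak; blue marks neuronal and orange progenitor and glial filament genes. NES is covered almost end to end, while NEFH and PRPH have no H3K27ac peak.

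The stretches just upstream of annotated gene starts show where these marks lay in sequence. RefSeq promoter entries on GRCh38.p14 were matched for 4 of the 8 genes (INA, PRPH, VIM and NES), which cover strong, weak and unlisted acetylation. The 250 bases before each start are printed 5′ to 3′, and capitals mark matches on either strand to 3 promoter motifs, a GC box, a TATA box and an E-box, whose letters are given after the sequences.
NES, chr1:156677408-156677657, minus strand: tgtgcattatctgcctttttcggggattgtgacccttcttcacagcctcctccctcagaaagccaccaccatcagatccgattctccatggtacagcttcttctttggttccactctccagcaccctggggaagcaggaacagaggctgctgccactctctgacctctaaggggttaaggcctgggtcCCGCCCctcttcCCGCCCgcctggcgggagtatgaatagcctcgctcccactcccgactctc
VIM, chr10:17227991-17228240, plus strand: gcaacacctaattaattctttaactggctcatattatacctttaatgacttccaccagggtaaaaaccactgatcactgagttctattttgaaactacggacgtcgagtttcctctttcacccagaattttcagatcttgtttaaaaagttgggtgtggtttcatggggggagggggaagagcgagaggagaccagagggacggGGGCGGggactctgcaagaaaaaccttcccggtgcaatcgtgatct
INA, chr10:103276888-103277137, plus strand: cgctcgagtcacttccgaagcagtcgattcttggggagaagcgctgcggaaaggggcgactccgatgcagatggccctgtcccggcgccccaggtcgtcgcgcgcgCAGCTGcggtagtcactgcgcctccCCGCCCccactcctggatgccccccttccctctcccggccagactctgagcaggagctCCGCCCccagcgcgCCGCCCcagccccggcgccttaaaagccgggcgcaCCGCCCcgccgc
PRPH, chr12:49294897-49295146, plus strand: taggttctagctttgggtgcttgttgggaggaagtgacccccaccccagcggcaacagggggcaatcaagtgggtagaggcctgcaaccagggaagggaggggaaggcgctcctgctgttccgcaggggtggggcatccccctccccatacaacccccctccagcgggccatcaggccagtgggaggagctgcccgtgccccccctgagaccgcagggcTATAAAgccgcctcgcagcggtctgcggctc
For VIM all 250 bases lay under an H3K27ac peak, for NES 167 bases and for INA 154 bases. In PRPH none did, and 113 of its bases lay under a CTCF peak. The GC box, GGGCGG, was found in NES, VIM and INA, and in 42.6% of all 35116 upstream stretches of this length. The TATA motif, TATAAA, was found in PRPH alone of the 4, against 10.7% of all stretches, and its match ran from 31 to 26 bases before the start. The E-box searched, CAGCTG, which reads the same on both strands, was found in INA and in 14.0% of all stretches. The letters CCAAT, a common promoter element, matched none of the 4 and 32.0% of all stretches. The AP-1 motif TGANTCA also matched none of the 4, against 6.57% of all stretches. Nor did the motifs of NRF1, the CTCF core or REST, which were found in 1.03%, 1.54% and 0.0456% of all stretches. The marked matches do not overlap one another. The INA stretch held 30 CpG dinucleotides, the PRPH stretch 10, and the VIM and NES stretches 8 each, against a median of 11 over all stretches.

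Among the neuronal genes, NEFM encodes the medium neurofilament subunit and had the highest H3K27ac value. Its strongest peak, on chromosome 8 from 24912529 to 24913613, was enriched 14.3-fold and ended 148 bp short of the gene. A second peak from 24913724 to 24914901 covered the gene's lower-coordinate end with a fold enrichment of 11.4. The last, 134 bp wide and starting at 24915501, had a fold enrichment of 3.49. The listed acetylation at NEFM thus lay at its lower-coordinate end and in the part of the gene next to it. Its highest value exceeded that of 55.5% of the 19970 protein-coding genes, for which the median was 12.3 when genes without a peak counted as 0.

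NEFL encodes the light subunit, the core component on which neurofilaments assemble. A single H3K27ac peak overlapped it, from 24955007 to 24957100, with an enrichment of 8.38-fold, and it covered the gene's higher-coordinate end. A weak peak of fold enrichment 2.97 lay 5.01 kb beyond that end. NEFL thus stood below the median gene, above 39.4% of protein-coding genes. NEFM and NEFL are neighbours on chromosome 8, and the 31.9 kb between them held 0 H3K27ac peaks and 0 CTCF peaks. In both genes the acetylated end was the one facing away from the neighbouring neurofilament gene.

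INA encodes alpha-internexin, which appears early in developing neurons. Its annotated start, on chromosome 10, lay under a peak from 103277113 to 103278326 with a fold enrichment of only 3.34. The strongest of its 4 peaks lay inside the gene from 103281455 to 103282608, with an enrichment of 9.87-fold and a summit 4.69 kb downstream of the start. The remaining peaks, from 103276526 to 103277016 and from 103280077 to 103280697, had fold enrichments of 4.60 and 2.32. INA therefore had its highest value away from the annotated start, and that value exceeded those of 43.4% of protein-coding genes.

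NEFH encodes the heavy subunit, which is added last as axons mature. The nearest H3K27ac peak lay 12.2 kb beyond its higher-coordinate end, on chromosome 22 from 29503604 to 29504615, with an enrichment of 8.68-fold. It was the only H3K27ac peak within 50 kb. PRPH encodes peripherin, and its nearest H3K27ac peak lay 23.9 kb beyond its higher-coordinate end with a fold enrichment of 8.30. On the other side the nearest was 25.8 kb away, in the tubulin gene TUBA1C, with a fold enrichment of 7.40. Both genes had at least 1 CTCF peak within 10 kb. Among all protein-coding genes, 10.2% had a CTCF peak but no H3K27ac peak in this window.

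NES carried an H3K27ac peak of 10811 bp, on chromosome 1 from 156666569 to 156677379, with a fold enrichment of 35.3. It was the 5th widest of the 78694 peaks. Its summit lay 2.98 kb downstream of the annotated start of NES. Another peak of 2901 bp from 156663541 to 156666441 had an enrichment of 27.3-fold, and one of 2867 bp from 156660336 to 156663202 had 6.07. The first peak of the group, from 156659744 to 156660023, had a fold enrichment of 4.33. The peak on the upstream side, from 156677491 to 156678155, had 8.42. Together the 5 peaks took up 95.2% of a span of 18.4 kb, with gaps of 111 to 338 bp. The annotated start of NES fell in the gap of 111 bp between the widest peak and the one upstream of it. NES is known for an enhancer in its second intron that is active in neural progenitors, but exon positions were not used here.

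VIM had 9 H3K27ac peaks, more than 89.6% of protein-coding genes. The strongest, on chromosome 10 from 17229228 to 17231468, had an enrichment of 38.7-fold and its summit 1202 bp downstream of the annotated start. The start itself lay under a peak from 17227490 to 17229140 with a fold enrichment of 27.2. These 2 peaks and a weaker one, from 17226667 to 17227349 with a fold enrichment of 5.88, also overlapped the antisense transcript VIM-AS1, and ChIP-seq does not assign a mark to a strand. The rest of the gene carried weaker peaks, with fold enrichments of 5.06, 5.64, 2.35, 3.94 and 2.49 in order of coordinate. The last of these had a −log10 q of 0.955, which corresponds to a q-value above 0.05. A further peak of fold enrichment 7.19 lay 464 bp beyond the gene, from 17238057 to 17239316. Within VIM, the peaks near the annotated start therefore had the higher values and those in the far part the lower.

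GFAP, the marker filament of astrocytes, has to be read apart from its neighbours. The highest fold enrichment in its window was 62.8, at chromosome 17 from 44898743 to 44900251. That peak overlapped EFTUD2 and DNAAF19 and not GFAP. A second peak, from 44901269 to 44901659 with a fold enrichment of 3.65, overlapped DNAAF19. The only peak touching GFAP was 217 bp wide, from 44915204 to 44915420, with a fold enrichment of 2.75. Its −log10 q was 0.906, again a q-value above 0.05. A peak of 2034 bp from 44916030 to 44918063, 530 bp beyond the gene's higher-coordinate end, had a fold enrichment of 9.67. Without the peaks over other protein-coding genes, the highest value at GFAP was therefore 9.67, between those of NEFL and NEFM and below those of NES and VIM.

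**Figure D2:**
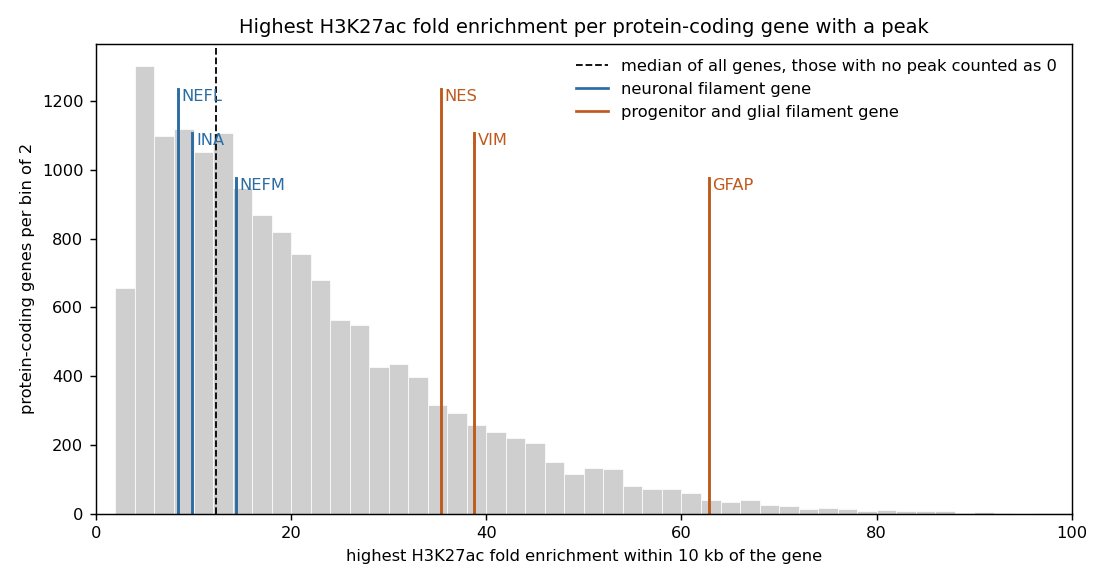
Number of protein-coding genes by the highest H3K27ac fold enrichment within 10 kb, in bins of 2, for genes with at least 1 peak. Lines mark 6 filament genes and the dashed line the median of 12.3 over all genes; the value of 62.8 at GFAP belongs to a peak over EFTUD2 and DNAAF19, and NEFH and PRPH, without a peak, are not drawn.

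Read as 2 groups, the neuronal genes had 9 H3K27ac peaks at 5 genes and the progenitor and glial genes 18 at 3 genes. The median per gene was 2 in the neuronal genes, equal to that of all protein-coding genes, and 5 in the progenitor and glial genes. The median of the highest fold enrichment was 8.38 for the neuronal and 38.7 for the progenitor and glial genes. Within the gene intervals alone, the neuronal peaks numbered 6 and the progenitor and glial ones 9. With peaks over other protein-coding genes left out, the progenitor and glial genes had 16 peaks and a median highest fold enrichment of 35.3. Both neuronal values, 9 and 8.38, were then unchanged. The progenitor and glial median was the higher one under all 8 settings of window and list, the main one included. The strongest 50% of the list, q under 0.01 and summits left both medians at 8.38 and 38.7. These settings therefore say little about how firm the difference is. The progenitor and glial value was that of NES or VIM in each setting except the window of 50 kb. There it was the 62.8 of the peak over EFTUD2 and DNAAF19. H3K27ac peaks took up 6.06% of the pooled length of the neuronal windows and 33.4% of that of the progenitor and glial windows. The latter includes the peaks over EFTUD2 and DNAAF19. As a median per gene, the shares were 9.46% and 29.0%, against 2.38% over all genes. In number, 6 of 8 genes had an H3K27ac peak within 10 kb, against 77.1% of all protein-coding genes, so the share of genes with a peak did not set this family apart. An end of the gene lay inside an H3K27ac peak at 5 of 8 genes (NEFL, NEFM, INA, VIM and NES), against 40.4% of genes.

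The members were also compared by the share of the gene under acetylation. At least 50% of the gene was covered in NES and VIM, which 1.92% of protein-coding genes reached; this limit was chosen after the values were seen. NES exceeded 99.6% and VIM 98.7% of all genes in this share. NEFL, NEFM and INA, although near the median gene in height, exceeded 95.6%, 94.6% and 94.1%. Filament genes are short, at 3540 to 13209 bp against a median of 24190 bp, and a peak of a given width covers more of a short gene. Against genes within 20% of the same length, NEFL exceeded 90.4%, NEFM 86.3%, INA 96.0%, VIM 99.5% and NES 99.9%. GFAP stood at 41.4% among such genes. In highest fold enrichment within 10 kb, NEFL exceeded 48.1% of genes of similar length, NEFM 61.5%, INA 46.2%, VIM 91.2% and NES 89.4%.

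**Figure D3:**
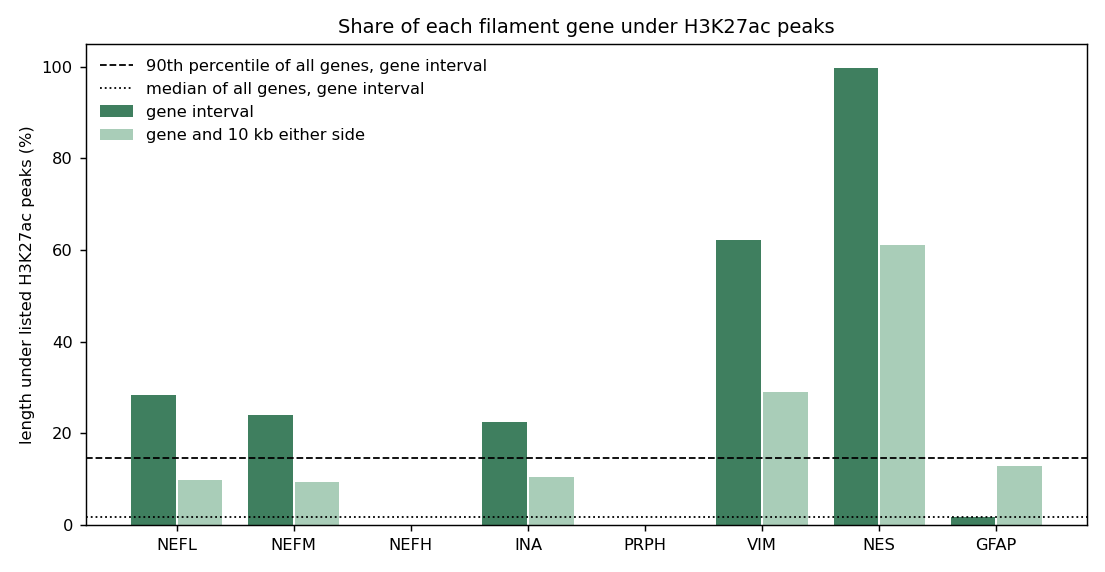
Percentage of each gene interval (dark bars) and of the gene with 10 kb on either side (light bars) that lay under listed H3K27ac peaks. Lines give the median (1.66%) and the 90th percentile (14.5%) of the gene interval share over all protein-coding genes; NES and VIM reach 99.7% and 62.2%, and NEFH and PRPH are at 0.

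All 8 genes had at least 1 CTCF peak within 10 kb, against 75.2% of protein-coding genes. NEFL had a single one, from 24956443 to 24956928 at the acetylated end of the gene, with a signal value of 271.5. NEFM had 5, and the strongest, from 24914745 to 24915204 inside the gene, had a signal value of 209. The other 4 were each 800 bp wide and had signal values of 10.7 to 46.4. The lowest of them, from 24912458 to 24913257, had a −log10 q of 0.0538. Both neurofilament genes on chromosome 8 thus had 1 strong CTCF peak overlapping an H3K27ac peak. At NEFL its summit lay within the H3K27ac peak, 0.076 kb beyond the gene's higher-coordinate end. At NEFM the summit lay 1.21 kb inside the gene from its lower-coordinate end, just past the H3K27ac peak that it overlapped.

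PRPH had 3 CTCF peaks and no acetylation beside them. The strongest, on chromosome 12 from 49288293 to 49288747, lay 6.40 kb from the gene with a signal value of 220. One from 49296465 to 49296890 inside the gene had a signal value of 123, and one of 800 bp from 49295034 to 49295833 covered the annotated start with a signal value of 30.9. NEFH had only a peak from 29470346 to 29470822, 9.40 kb from the gene, with a signal value of 202. It lay just inside the limit of 10 kb, and the next on that side was 84.8 kb away with a signal value of 287. INA had 1 CTCF peak of 800 bp, from 103277190 to 103277989, which began just inside the gene and had a signal value of 77.9.

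The CTCF peaks of NES flanked the acetylated stretch. The one from 156659856 to 156660447 had a signal value of 289, and the one from 156677974 to 156678455 had 238. They overlapped the first, second and last of the 5 H3K27ac peaks, and none lay inside the widest peak. Another, just outside the window at 10.9 kb and overlapping BCAN, had a signal value of 308. In VIM both CTCF peaks lay inside the gene, with signal values of 94.7 and 40.9. GFAP had 4, with signal values of 114, 42.8, 272 and 34.5 in order of coordinate, and the strongest, from 44919936 to 44920413, lay 4.44 kb beyond the gene without acetylation.

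H3K27ac peaks were met by 10 of the 19 CTCF peaks, against 34.1% of CTCF peaks within 10 kb of any protein-coding gene. Of the 19, 9 had the width of 800 bp that recurs through the CTCF list, where 33.4% of peaks have it. Those 9 had signal values of 10.7 to 77.9 and the other 10 had 94.7 to 289. Signal by width was not examined over the whole CTCF list, so this split is not read as particular to these genes. Overlap with H3K27ac was found in 5 of the 9 peaks of 800 bp and in 5 of the other 10. The median of the highest CTCF signal was 209 for the neuronal and 272 for the progenitor and glial genes. The progenitor and glial median was the higher one in 9 of the 10 settings, the main one included, and so was the number of CTCF peaks per gene. Most settings left both medians unchanged, namely 25 kb, stricter lists, summits, merged entries and removal of peaks over other genes or of 800 bp. With 50 kb the medians were nearly equal, at 271.5 and 271.9. Within the gene intervals alone the order was the opposite, at 123 and 94.7 for the medians.

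**Figure D4:**
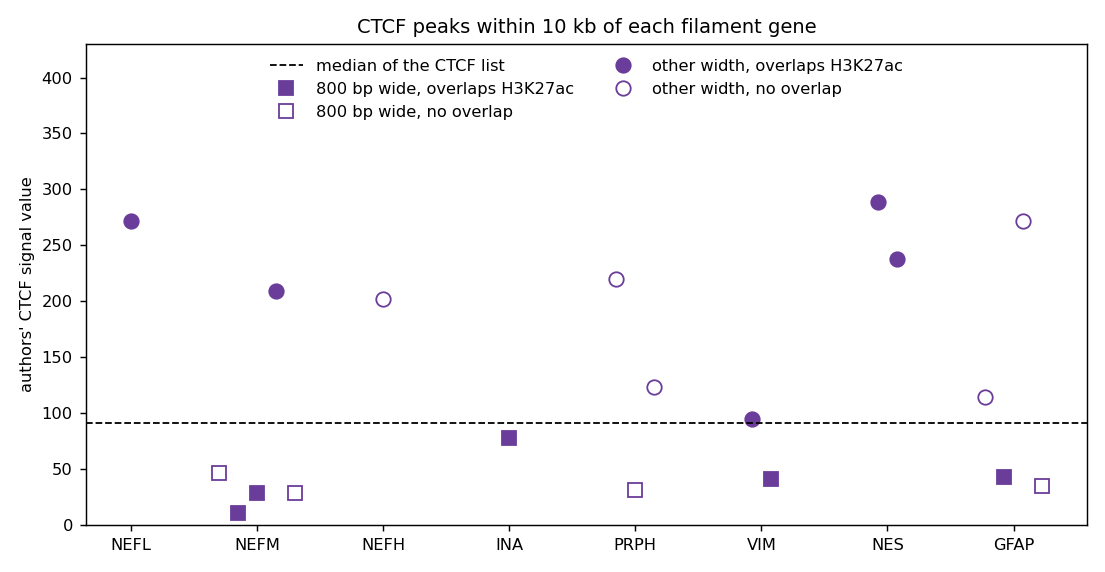
Authors' signal value of each CTCF peak within 10 kb of each filament gene. Squares are peaks 800 bp wide and circles other widths, filled symbols overlap an H3K27ac peak, and the dashed line is the median of the CTCF list (91.0). All squares lie below it and all circles above, a split that was not examined over the whole list.

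Genes whose products work with neurofilaments were read in the same way, although a longer gene has a longer window that can hold more peaks. The 9 partners were motors (KIF5A, KIF5C, MYO5A and DYNC1H1), linkers (PLEC, DST and MAP1B) and the kinase CDK5 with its activator CDK5R1. All 9 had an H3K27ac peak within 10 kb, as had 77.1% of all protein-coding genes, with a median highest fold enrichment of 25.7 against 12.3 over all genes. That median was the value at CDK5, whose 4 peaks all lay outside the gene itself. Among the 9, the highest was 57.3 at MAP1B and the lowest 15.9 at MYO5A, above the highest value of any neuronal filament gene. Among 12 other intermediate filament genes 8 had a peak, and the median was 3.20. The lamin gene LMNB2 had the highest value of that list, 52.7, and KRT8 and KRT18 the lowest with a peak, 2.29 each. Both had 1 peak of the same value, and that of KRT18 lay outside the gene. Whether they share a peak was not examined. DES of muscle and the epithelial keratin genes KRT5, KRT14 and KRT19 had none.

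Marker genes of the cell types that such cultures can hold were read in the same window, in which 77.1% of all protein-coding genes had an H3K27ac peak, so counts near that share say little about a list. All 8 neuron markers had an H3K27ac peak, with a median highest fold enrichment of 17.9, the highest at MAP2 (35.9) and the lowest at SYN1 (5.54). All 8 neural progenitor markers had one, with a median of 42.3, the highest at NOTCH1 (58.7) and the lowest at PAX6 (9.81). Of the 8 astrocyte markers 7 had a peak, with a median of 17.1, the highest at GJA1 (30.4), the lowest at ALDH1L1 (4.39) and none at AQP4. Progenitor markers thus had high values in the same lists as NES and VIM, and their part in the values at NES and VIM was not tested. Of 4 peripheral neuron markers, ISL1 (2.97) and PRDM12 (5.41) had a peak, while POU4F1 and SCN10A had none, like PRPH. Of 6 mesenchymal markers 5 had a peak with a median of 6.50, the highest at PRRX1 (12.3) and the lowest at LUM (3.96), and DCN had none. Of 4 pluripotency markers 3 had one with a median of 7.41, the highest at LIN28A (12.1) and the lowest at POU5F1 (7.19), and NANOG had none.

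**Figure D5:**
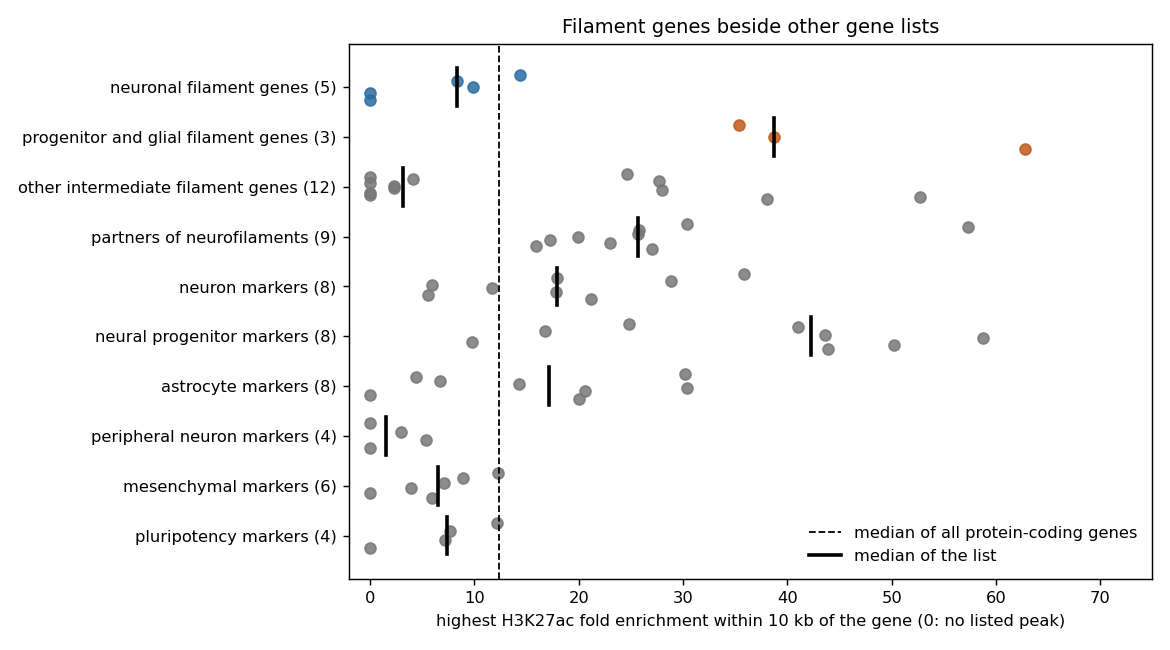
Highest H3K27ac fold enrichment within 10 kb of each gene, 1 point per gene, with genes that have no peak at 0; list sizes are in parentheses, thick bars are list medians and the dashed line is the median over all protein-coding genes (12.3). Neuronal filament genes (median 8.38) lie below the partners of neurofilaments (25.7, the value at CDK5, whose peaks lie outside the gene). VIM and NES lie within the ranges of the progenitor markers, the partners and the other intermediate filament genes. NES also lies within the range of the neuron markers. The point at 62.8 is the peak over EFTUD2 and DNAAF19 in the window of GFAP.

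The window of 10 kb was the limit of choice, so the peaks just outside it are given for the genes they concern. The nearest H3K27ac peak outside NES was 12.0 kb from the gene on the higher-coordinate side with a fold enrichment of 3.30, and outside VIM it was 12.5 kb away on the lower side with 4.87. Within 50 kb, VIM had a peak of fold enrichment 66.9 at 25.5 kb, on chromosome 10 from 17200052 to 17202789, which overlapped TRDMT1. INA had one of 25.2 at 45.7 kb, from 103230419 to 103231399, that overlapped no protein-coding gene. With 50 kb on either side PRPH had 10 H3K27ac peaks, but the highest was 9.58, and NEFH still had 1.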

How the data were processed

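ChIP-seq peaks came as 1 list for each antibody, in 10 columns, that covers both replicates. Per the submitters' processing notes, the build was hg38 and cutadapt 1.16 was used. The aligner, peak caller and duplicate handling are not given in the sources used here. Per the labels, the CTCF file is named for the irreproducible discovery rate (IDR), which filters peaks on agreement between replicates. The CTCF signal value is the authors' own, on an unstated scale. The deposited H3K27ac signal column was read from its layout as a ratio, the fold enrichment at the summit. Each deposited list has a −log10 q column. Their deposited score, capped at 1000, was not used. The CTCF −log10 q is capped at 4.78. The lists held 0 columns of per-sample values, and input values were not analysed here.

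Positions were converted to 1-based coordinates. Gene intervals came from RefSeq's GRCh38.p14 table, the same build, restricted to 19970 protein-coding genes on 23 chromosomes. All listed genes were found there, and a few genes of the lists are not reported here. A peak belonged to a gene when at least 1 bp lay within 10 kb of it. Genes without a peak counted as 0 in medians, and a percentage of genes exceeded counts strictly lower values. Motifs were searched in the 250 bases before each start of 35116 RefSeq promoter entries. Overlap counts were computed with pandas 2.3.3 and numpy 2.4.6 and checked on simulated peaks. All peaks within 10 kb of a member were given by interval, by value or within a range. Of the other lists, the highest gene, the lowest and those without a peak were named. The members and lists were chosen with earlier results of these data known. No test was run, since each list covers 1 condition without single replicates. Alternatives were other windows, stricter lists, summits, removal of peaks over other genes, merged CTCF entries, removal of the 800 bp width and genes of similar length.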

Additional observations from a re-analysis of the deposited data

How the results depend on the processing

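No paired analysis was possible because each list covers both replicates and holds no values of single replicates, and leaving out a replicate was not run for the same reason. Of 80 alternative values of the group counts and medians, 59 stayed equal or within 1.5 times (counts) and 21 moved. Within the gene intervals alone, progenitor and glial genes had 9 H3K27ac peaks with a median highest fold enrichment of 35.3 and 3 CTCF peaks with a median highest signal of 94.7, and neuronal genes had 7 CTCF peaks with 123. With 25 kb on either side, the neuronal fold enrichment was 8.68 and the progenitor and glial CTCF peaks numbered 15. With 50 kb, neuronal genes had 35 H3K27ac peaks (14.3) and 29 CTCF peaks (271.5), and progenitor and glial genes had 40 H3K27ac peaks (62.8, the peak over EFTUD2 and DNAAF19 in the window of GFAP, with the higher 66.9 at VIM over TRDMT1) and 23 CTCF peaks. In the strongest 50% of each list, neuronal genes had 4 H3K27ac and 5 CTCF peaks, and progenitor and glial genes 5 CTCF peaks. Without the 800 bp width, 5 CTCF peaks were left in each group. Without peaks over other protein-coding genes, the progenitor and glial fold enrichment was 35.3. A larger window or a shorter list changes these counts by construction. Of the values of single genes, percentiles among genes of similar length included, 196 stayed and 76 moved. A fold enrichment, signal value or percentile was counted as moved if it differed at all, even slightly. The number of members with an H3K27ac peak was 6, and 8 with 25 or 50 kb. With summits in place of any overlap, q under 0.01 or merged CTCF entries, group medians were equal and group counts within 1.5 times.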

Other observations

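Larger surroundings, chosen after the values were seen, gave other pictures for PRPH and NES. With 100 kb on either side, PRPH had 21 H3K27ac peaks, more than 83.6% of protein-coding genes, with a highest fold enrichment of 48.1, although none lay within 10 kb of it. NEFH had 7 H3K27ac peaks in that distance, more than 35.7% of genes, with a highest fold enrichment of 16.1. NES had 22 CTCF peaks within 100 kb, more than 99.3% of genes, and 33 H3K27ac peaks, more than 95.8%. VIM had 14 H3K27ac peaks, all of them within 50 kb, and 5 CTCF peaks. NEFL and NEFM share most of these surroundings and each had 10 CTCF peaks, and the highest H3K27ac fold enrichment within 100 kb of either was still the 14.3 at NEFM.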
